A study of Homo sapiens with 5 samples.

Results

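The genes described here are 9 interferon-stimulated genes, IFIT1, IFIT2, IFIT3, ISG15, MX1, OAS1, IFI6, IFI27 and IFI44L, chosen by symbol from the 36601 gene rows of the larger of the deposited matrices. RNA and open chromatin (ATAC) had been read from the same nuclei with the 10X Multiome assay, in which each nucleus shares 1 droplet (GEM) for both libraries. The nuclei came from 5 established lines of human lung adenocarcinoma (A549, HCC827, H838, H1975 and H2228), cultured apart in RPMI medium supplemented with 10% FCS and 1% Penicillin-Streptomycin, stored frozen and pooled in equal amounts. The GEMs were divided into portions of 20% and 80%, each giving 1 RNA and 1 ATAC library. All lines were handled alike, the labels name no interferon, virus or other agent for any of them, and no label says which nucleus is which line. There is therefore 1 library per portion and no replicate culture, so values are given with exact 95% intervals that cover counting error and not the spread between nuclei or cultures, and no test was possible.

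Interferons are secreted proteins that bind receptors on the cell surface, where the kinases JAK1, TYK2 and JAK2 activate transcription factors. A complex that holds IRF9 then enters the nucleus and binds the interferon-stimulated response element in the promoters of target genes, many of which encode proteins that block viral replication. IRF3, IRF7 and IRF1 can bind the same kind of element, so some of the genes, the IFIT family among them, can also be induced through RNA or DNA sensors without secreted interferon.

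The core of that element, 2 copies of TTTC with any 2 bases between them, was searched on both strands in the RefSeq promoter windows (GRCh38.p14, 250 bases before to 50 after each start). It was present in at least 1 window of 7 of the 8 genes with an entry, against 3.57% of 35116 windows and 4.38% of 27305 genes, and 6 of the 8 held at least 2 matches in a window, against 0.259% of windows. The stretches below show most of these matches with 10 bases on either side, 5′ to 3′ on the strand of the gene. Capitals mark the matching bases, which read as TTTC and TTTC on the strand of the gene or as GAAA and GAAA where the match is on the other strand.
ISG15 (chr1:1013374-1013409, + strand): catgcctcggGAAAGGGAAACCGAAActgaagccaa
IFIT1 (chr10:89392497-89392539, + strand): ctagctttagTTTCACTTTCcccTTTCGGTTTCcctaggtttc
IFIT3 (chr10:89327831-89327894, + strand): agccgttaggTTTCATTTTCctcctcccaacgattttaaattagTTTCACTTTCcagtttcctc
IFI6 (chr1:27672266-27672358, - strand): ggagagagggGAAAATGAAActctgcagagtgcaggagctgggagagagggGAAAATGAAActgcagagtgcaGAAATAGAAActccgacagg
IFI27 (chr14:94110618-94110660, + strand): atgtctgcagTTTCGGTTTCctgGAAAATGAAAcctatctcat
IFI44L (chr1:78620274-78620303, + strand): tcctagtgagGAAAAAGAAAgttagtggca
MX1 (chr21:41431844-41431873, + strand): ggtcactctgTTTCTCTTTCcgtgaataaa

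With the start at 0, the matches began at -113 and -107 in ISG15, where they overlap, at -116 and -103 in IFIT1, at -156 and -122 in IFIT3 (and at -94 and -51 from its alternative start at 89332529, not printed) and at -156, -115 and -93 in IFI6. IFI27 held them at -187 and -174 from its canonical start, and IFI44L at -164 and -73, of which the first is printed. In MX1 the printed match lay at -196 from an alternative start at position 41432050, another lay at 11 after a start at 41420558, and none lay in the window of the canonical start at 41426239. The OAS1 window held no match, which says only that these letters were not in it, and IFIT2 had no entry. The genes lie on 5 chromosomes. IFIT2 (89283694 to 89309271), IFIT3 (89327307 to 89377473) and IFIT1 (89392546 to 89406487) are neighbours on chromosome 10, and all 3 overlap LIPA on the opposite strand. On chromosome 1 lie ISG15 (1001138 to 1014540), IFI6 (27666064 to 27672212) and IFI44L (78619902 to 78646145). OAS1 (112905856 to 112933219) is on chromosome 12, IFI27 (94104836 to 94116695) on 14 and MX1 (41420020 to 41470071) on 21.

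The 80% portion held 6557 nuclei with 95455518 RNA UMIs, a median of 13306 per nucleus, and the 20% portion 1286 nuclei with 14346346 UMIs, a median of 10540.5. The 9 genes took 32356 UMIs of the former (0.0339%) and 4873 of the latter (0.0340%). Nuclei were grouped by RNA clustering from which these genes and 82 other interferon pathway genes had been left out, giving 5 clusters. A cluster of 1459 nuclei was called A549-like from ALDH1A1, AKR1B10, AKR1C1 and TM4SF4, and one of 328 nuclei HCC827-like from EGFR and its neighbours LANCL2, VOPP1 and SEC61G. EGFR stood at 7229 CPM, UMIs per 1000000 UMIs of the cluster, in the latter and at 468.4 at most elsewhere. The other clusters are called by their leading genes, the NLGN1 cluster (2469 nuclei), the ZBTB46-AS1 cluster (1464) and the PLK5 cluster (837). Names were rebuilt here from the data. Median UMIs per nucleus ran from 9140 in the A549-like to 15887 in the PLK5 cluster, and Scrublet called 10.8% of PLK5, 8.06% of NLGN1 and 0.546% of ZBTB46-AS1 nuclei doublets, which were kept. The portions shared 159 barcodes. Markers of leukocytes, endothelium and fibroblasts, which were not mixed in, were led by CD14 at 10.3, PECAM1 at 8.82 and CD79A at 6.91 CPM in the 80% portion, a range that also holds many of the lower levels of the 9 genes, and the other 8 of 11 stood at 1.41 CPM at most, while the epithelial keratin KRT8 stood between 510.6 and 2843 CPM.

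Summed over the 9 genes, RNA was highest in the PLK5 and HCC827-like clusters and lowest in the ZBTB46-AS1 cluster. In the 80% portion the sum stood at 654.3 CPM in the PLK5, 603.6 in the HCC827-like, 364.5 in the NLGN1, 170.4 in the A549-like and 101.1 in the ZBTB46-AS1 cluster, and in the 20% portion at 810.0, 543.0, 335.9, 181.0 and 109.5 CPM in the same order. The highest cluster was 6.47-fold (6.16 to 6.80) over the lowest in the 80% and 7.40-fold (6.58 to 8.34) in the 20% portion. The PLK5 cluster stood 1.08-fold (1.04 to 1.13) over the HCC827-like one, a lead that turned to 0.962 when each nucleus was thinned to 5000 UMIs. Within the HCC827-like cluster the sum was 811.7 CPM in the shallowest group of nuclei and 469.2 CPM in the deepest when nuclei were ranked by depth into 3 equal groups, and in the PLK5 cluster 612 and 660. Leaving out the shared barcodes kept the order of the clusters in both portions, at 649.8, 606.4, 365.5, 170.8 and 100.7 CPM in the 80% one.

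**Figure D1:**
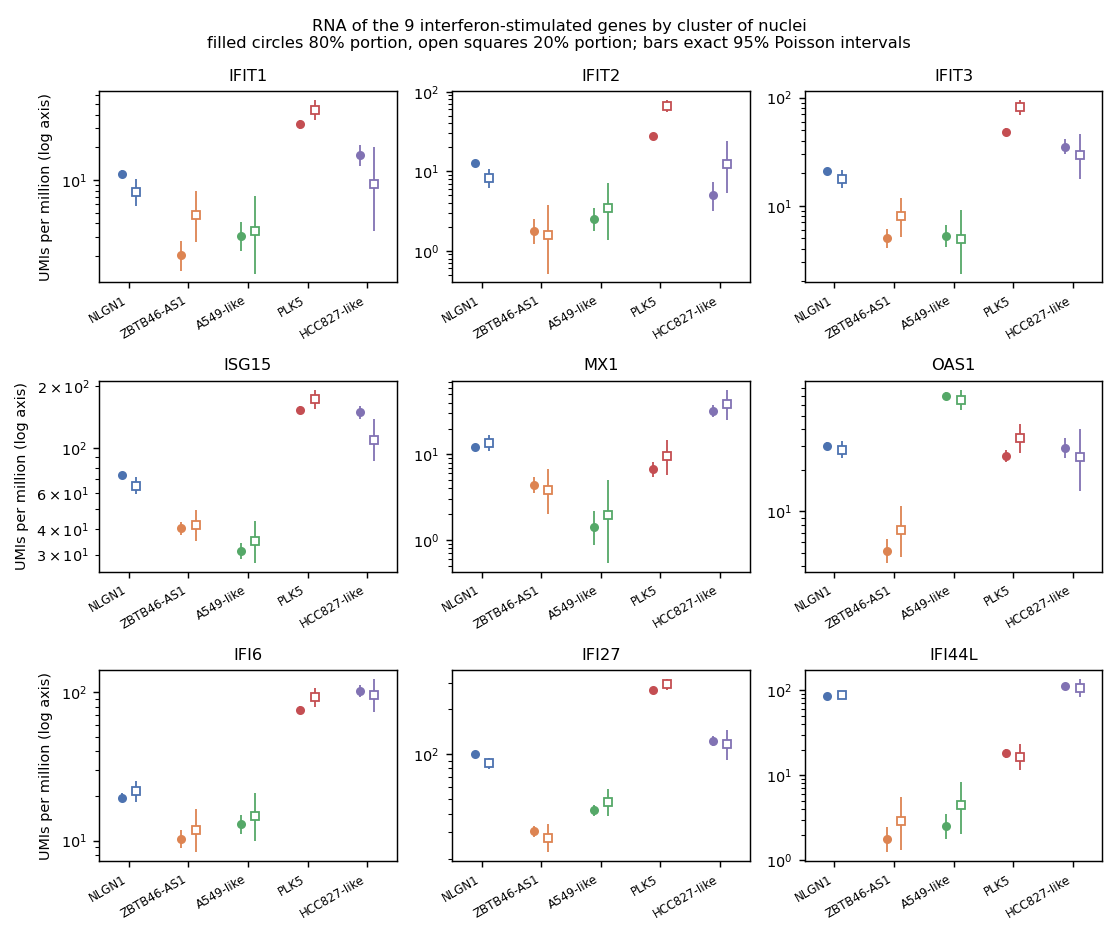
RNA level of each gene (CPM, log axis) in the 5 clusters, filled circles for the 80% and open squares for the 20% portion, with exact 95% Poisson intervals. IFI44L spans the widest range, from 1.78 to 110.7 CPM in the 80% portion, and OAS1 is the gene that is highest in the A549-like cluster.

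The IFIT proteins bind viral RNA and assemble with each other, IFIT1 recognising caps that lack a methyl group. IFIT1 stood at 32.5 CPM (29.7 to 35.6) in the PLK5, 17.0 in the HCC827-like, 11.4 in the NLGN1, 3.05 in the A549-like and 2.04 in the ZBTB46-AS1 cluster. The 20% portion gave 44.2, 9.28, 7.80, 3.44 and 4.79 CPM in the same order of clusters. The 3 clusters at the top kept their order, and the lowest 2 overlapped in their intervals. IFIT2 was at 27.6 CPM in the PLK5, 12.7 in the NLGN1, 4.98 in the HCC827-like, 2.51 in the A549-like and 1.78 in the ZBTB46-AS1 cluster, and in the 20% portion at 66.2, 8.26, 12.4, 3.44 and 1.60 CPM. IFIT3 was at 48.2, 35.3, 21.0, 5.29 and 5.01 CPM in the PLK5, HCC827-like, NLGN1, A549-like and ZBTB46-AS1 clusters, and at 81.3, 29.4, 17.7, 4.92 and 7.98 CPM in the 20% portion. Thus all 3 were highest in the PLK5 cluster as deposited, by 1.91-fold (1.51 to 2.45) for IFIT1, 2.18-fold (1.91 to 2.49) for IFIT2 and 1.36-fold (1.15 to 1.62) for IFIT3, although thinning turned the lead of IFIT3 to 0.951.

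ISG15 encodes a ubiquitin-like protein that is joined to other proteins and also secreted. It stood at 153.1 CPM in the PLK5, 149.5 in the HCC827-like, 73.6 in the NLGN1, 40.3 in the ZBTB46-AS1 and 31.3 in the A549-like cluster, and in the 20% portion at 173.6, 109.8, 65.3, 41.8 and 34.9 CPM. The top 2 clusters could not be told apart in the 80% portion, at a fold of 1.02 (0.941 to 1.11) that turned to 0.889 with thinning, while the 20% portion gave 1.58 (1.22 to 2.07). Every cluster held ISG15 RNA, and its range of 4.89-fold (4.42 to 5.41) was the narrowest of the 9 genes.

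MX1, a dynamin-like GTPase that traps viral nucleocapsids, was highest in the HCC827-like cluster. Its levels were 32.4 CPM there, 12.02 in the NLGN1, 6.64 in the PLK5, 4.39 in the ZBTB46-AS1 and 1.42 in the A549-like cluster, and in the 20% portion 38.7, 13.6, 9.54, 3.83 and 1.97 CPM. The order was the same in both portions, and the HCC827-like cluster led by 2.69-fold (2.24 to 3.23). OAS1, which makes the short oligoadenylates that activate RNase L, had another order. It stood at 69.5 CPM in the A549-like cluster, 2.30-fold (2.11 to 2.50) over the 30.2 CPM of the NLGN1 cluster, and at 29.1 in the HCC827-like, 25.4 in the PLK5 and 5.17 in the ZBTB46-AS1 cluster. The 20% portion gave 65.4, 28.3, 24.8, 34.1 and 7.34 CPM, and the 3 middle clusters did not separate beyond neighbouring intervals in the 80% portion.

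IFI6 and IFI27 encode small membrane proteins that act on organelles and on cell survival, and IFI44L a relative of the cytoplasmic protein IFI44. IFI6 was at 102.2 CPM in the HCC827-like, 76.3 in the PLK5, 19.5 in the NLGN1, 12.9 in the A549-like and 10.2 in the ZBTB46-AS1 cluster, and at 95.9, 92.3, 21.6, 14.8 and 11.8 CPM in the 20% portion. IFI27 was at 266.5 CPM in the PLK5, 122.5 in the HCC827-like, 99.6 in the NLGN1, 41.9 in the A549-like and 30.4 in the ZBTB46-AS1 cluster, with no overlap between neighbouring intervals, and at 292.1, 116.0, 86.7, 47.7 and 27.4 CPM in the 20% portion. The PLK5 cluster led in IFI27 by 2.18-fold (1.99 to 2.38). IFI44L separated the clusters most widely, at 110.7 CPM in the HCC827-like and 84.5 in the NLGN1 cluster against 18.0 in the PLK5, 2.51 in the A549-like and 1.78 in the ZBTB46-AS1 cluster. Its highest level was 62.3-fold (44.1 to 91.0) over its lowest, which was not separated from RNA free in the droplets, so that the fold can be larger, and the 20% portion gave 106.7, 86.7, 16.6, 4.42 and 2.87 CPM. The PLK5 cluster, highest in IFI27 and the IFIT genes, was thus well below the NLGN1 cluster in IFI44L and in MX1.

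Read against all 16913 genes with at least 100 UMIs, a highest cluster at least 2-fold over the next was found for 4 of the 9 genes in the 80% portion (IFIT2, MX1, OAS1 and IFI27), where 17.6% of genes met that rule, and for 5 of 9 in the 20% portion, against 18.7%. At least 5-fold between the highest and the lowest cluster was found for 8 of 9, against 29.9% of genes, and for 8 of 9 against 36.7% in the 20% portion. The median of that fold was 13.4 for the 9 genes and 2.71 for all genes. The lowest levels of IFIT1, IFIT2, MX1 and IFI44L, at 1.42 to 2.04 CPM, were not separated from RNA free in the droplets. Their folds are therefore uncertain and can be larger. The highest cluster was the PLK5 one for 5 genes, the HCC827-like one for 3 and the A549-like one for OAS1, while 33.3% of all genes were highest in one of the former pair. Levels were lowest in the ZBTB46-AS1 cluster for 7 genes (27.8% of all genes) and in the A549-like cluster for ISG15 and MX1 (19.1%). All 9 had the same highest cluster in both portions, as had 75.4% of all genes. The portions are divisions of the same GEMs and not separate cultures.

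The PLK5 cluster was not uniform. At a finer resolution, chosen after the data were seen, it came apart into 472 and 365 nuclei. The larger group had TAGLN at 8.43 and MGP at 14.5 CPM, the smaller one 244.8 and 134.9 CPM. The 9 genes summed to 861.7 CPM (842.7 to 881.1) in the former and 336.5 (321.9 to 351.7) in the latter. IFI27 was at 385.6 against 84.1 CPM, ISG15 at 182.7 against 107.7, IFI6 at 97.6 against 43.7 and OAS1 at 38.0 against 6.12. MX1 was at 8.43 against 3.91, IFI44L at 24.2 against 8.49 and IFIT3 at 60.0 against 30.1 CPM. IFIT1, at 34.9 and 28.9 CPM, and IFIT2, at 30.3 and 23.6 CPM, were the closest. The NLGN1 cluster also came apart at this resolution, mainly into groups of 1364 and 1119 nuclei, which made 7 clusters. These groups together held more nuclei than the NLGN1 cluster, while the ZBTB46-AS1 group held 1450 instead of 1464. Over the 7 clusters, the 2-fold rule was met by 2 of the 9 genes, against 12% of all genes. Which line or lines the PLK5 nuclei came from is not given by the labels.

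The share of nuclei with a UMI of a gene was compared after each nucleus had been thinned to 5000 UMIs, which left out 101 shallower nuclei of the 80% portion. IFI44L was found in 30.9% of NLGN1 and 29.5% of HCC827-like nuclei, in 6.95% of PLK5 nuclei, in 1.26% of ZBTB46-AS1 and in 1.05% of A549-like ones. Without thinning these shares were 59.0%, 52.1%, 20.5%, 2.19% and 2.33%. OAS1 was found in 28.6% of A549-like nuclei, in 9.23% to 15.4% of the NLGN1, PLK5 and HCC827-like clusters and in 2.79% of ZBTB46-AS1 ones, and without thinning in 45.6%, 26.8% to 33.8% and 6.42%. No cluster is known to lack these RNAs, so at median depths of 12608 UMIs in the ZBTB46-AS1 and 9140 in the A549-like cluster the lowest share bounds what RNA free in the droplets can add, and IFI44L in the A549-like and ZBTB46-AS1 clusters is not read as expression. At least 3 of the 9 genes were found together in 31.0% (26.0 to 36.4) of HCC827-like, 21.9% (19.2 to 24.9) of PLK5, 13.0% (11.7 to 14.4) of NLGN1, 2.81% (2.01 to 3.80) of A549-like and 0.418% (0.154 to 0.908) of ZBTB46-AS1 nuclei. Unthinned, the shares were 65.2%, 62.7%, 62.9%, 11.03% and 6.56%.

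Nuclei of 1 cluster differed in these genes by more than counting error in 3 of the 5 clusters. The measure is the Fano factor, the variance over the mean, which is 1 for counting error alone. In the PLK5 cluster all 9 genes exceeded 1.2, against 14.4% of genes with as many UMIs as the lowest of them, with IFIT2 at 5.59, IFIT3 at 5.31, IFI27 at 3.397 and IFIT1 at 3.09. The count was 5 of 9 without the nuclei of at least 10 IFIT UMIs described below, and 9 and 7 of 9 within the groups of 472 and 365 nuclei. All 9 did so in the HCC827-like cluster (24.6% of genes), led by ISG15 at 4.48 and IFI44L at 3.09. In the NLGN1 cluster 5 of 9 did (13.5%), with IFIT2 at 5.86, IFIT3 at 3.73, IFIT1 at 3.39, ISG15 at 3.26 and IFI44L at 1.45, whereas IFI6, OAS1, MX1 and IFI27 stood between 1.04 and 1.17. None of the 9 did in the ZBTB46-AS1 (7.61%) or the A549-like cluster (10.7%), where OAS1 varied between nuclei little more than by counting. Some of the 9 had few UMIs there after thinning, down to 15 in the former and 7 in the latter, where the factor can show little. The IFIT2 factor of the NLGN1 cluster was exceeded by 0.0641% of the genes with at least as many UMIs, and that of the PLK5 cluster by 0.194%. These were the lowest such shares in their clusters, and the highest were those of IFI6, at 67.0% and 11.1%. Over the nuclei of a cluster, the 36 pairs of genes correlated with a median of 0.284 in the HCC827-like, 0.163 in the PLK5 and 0.0844 in the NLGN1 cluster, and of 0.00266 and -0.00219 in the ZBTB46-AS1 and A549-like clusters. The closest pairs were IFIT2 and IFIT3 at 0.781 in the PLK5 cluster and IFIT1 and IFIT2 at 0.596 in the NLGN1 cluster.

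**Figure D2:**
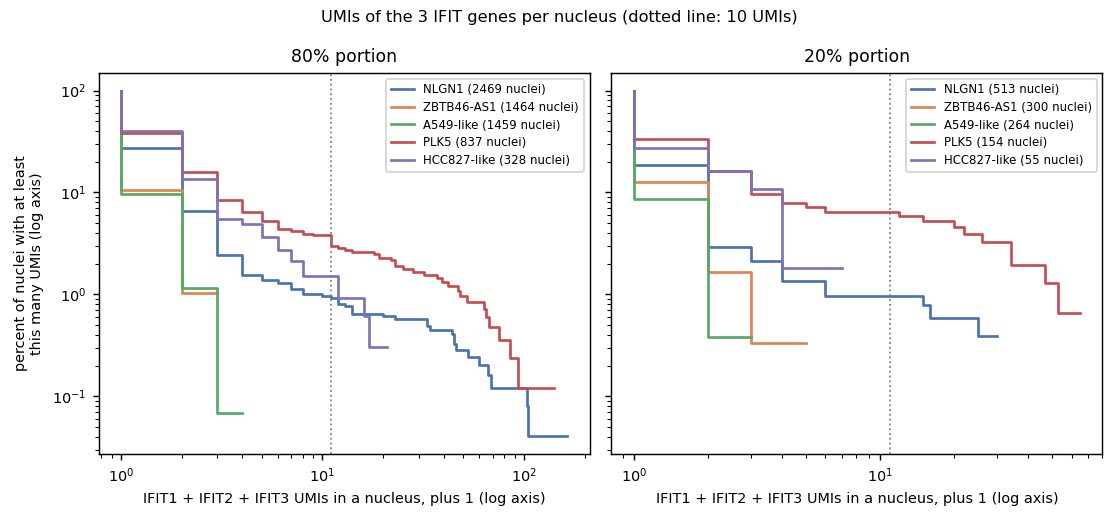
Percent of nuclei (log axis) with at least a given number of IFIT1, IFIT2 and IFIT3 UMIs (plus 1, log axis) in each cluster, with 1 panel per portion and the dotted line at 10 UMIs. The PLK5 and NLGN1 clusters run out to 140 and 163 UMIs in the 80% portion, while no nucleus of the A549-like or ZBTB46-AS1 cluster holds more than 3 there or more than 4 in the 20% portion.

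A large part of the IFIT UMIs of the PLK5 and NLGN1 clusters lay in few nuclei. In the 80% portion 61 of 6557 nuclei (0.930%, 0.712 to 1.19) held at least 10 IFIT1, IFIT2 and IFIT3 UMIs together, a threshold chosen after these counts were seen, and these nuclei held 2241 of the 4104 IFIT UMIs (54.6%). Of the other nuclei, 20.9% held at least 1 IFIT UMI, and 39.3% of those in the HCC827-like cluster did. All 3 genes were present in 55 of the 61. In the NLGN1 cluster they were 24 of 2469 nuclei (0.972%, 0.624 to 1.44) with 10 to 163 IFIT UMIs, a median of 32.5 and 54.2% of the cluster's IFIT UMIs. Of its other nuclei 1796 held none, 613 held 1 or 2, and the highest held 9. In the PLK5 cluster they were 32 of 837 (3.82%, 2.63 to 5.35), with a median of 23, a highest count of 140 and 71.0% of the IFIT UMIs, and the next nucleus below held 8. The HCC827-like cluster had 5 such nuclei of 328 (1.52%, 0.497 to 3.52), with 11 to 20 UMIs and 26.4% of its IFIT UMIs. This cut does not allow for depth. After thinning to 5000 UMIs, at least 3 IFIT UMIs were held by 9 of 319 HCC827-like, 30 of 834 PLK5 and 24 of 2443 NLGN1 nuclei. The ZBTB46-AS1 cluster had 0 of 1464 nuclei, which at a floor of 3 counts allows a share of up to 0.205%, and the A549-like cluster 0 of 1459, up to 0.206%. In the 20% portion 15 of 1286 nuclei held 60.9% of the IFIT UMIs, 10 of them among 154 PLK5 nuclei (6.49%) and 5 among 513 NLGN1 nuclei (0.975%), and none of their barcodes was shared with the other portion.

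Scrublet called 6 of the 61 nuclei doublets, and their median depth was 18167 UMIs against 13275 in the rest. In the 20% portion 4 of the 15 were called doublets, against 80 of 1286 nuclei in all. Both groups of PLK5 nuclei had them, 20 of 472 (4.24%) and 12 of 365 (3.29%). Without them, IFIT1 stood at 13.9 CPM in the PLK5 and 13.7 in the HCC827-like cluster, IFIT2 at 6.15 and 2.94, and IFIT3 at 12.7 and 26.1. The IFIT3 level of the PLK5 cluster was then 0.486 of that of the HCC827-like cluster, ISG15 was 0.941 of it, and the sum of the 9 genes 0.974 of it. The lead of the PLK5 cluster in IFIT3 and in the sum was thus not seen without these nuclei, 32 of its 837. Its lead in IFIT1 fell to 1.02-fold, and that in IFIT2 over the NLGN1 cluster to 1.42-fold. IFIT2 then no longer had a highest cluster at least 2-fold over the next. IFIT3, highest in the HCC827-like cluster, did, so the count of such genes stayed at 4. The nuclei left out were chosen by their IFIT UMIs, so leaving them out had to lower the IFIT levels.

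The other genes were compared between these nuclei and the rest of the same cluster. IFIT1, IFIT2 and IFIT3 chose the nuclei, so their folds of 34.1 to 154 are a description of the choice. In the NLGN1 cluster ISG15 was at 497.7 CPM in the 24 nuclei and 68.2 in the rest (7.30-fold, 6.43 to 8.26), MX1 at 59.1 and 11.4, OAS1 at 120.1 and 29.1, IFI44L at 244.1 and 82.5 (2.96-fold), IFI6 at 47.7 and 19.1 and IFI27 at 154.4 and 98.9 CPM. In the PLK5 cluster ISG15 was at 612.2 CPM in the 32 nuclei and 133.7 in the rest (4.58-fold, 4.12 to 5.08), MX1 at 29.9 and 5.66, OAS1 at 73.0 and 23.4, IFI6 at 104.5 and 75.1, IFI27 at 361.7 and 262.5 and IFI44L at 23.2 and 17.8 CPM. At least 2-fold was reached by 5 of the 6 genes in the NLGN1 and 3 of 6 in the PLK5 cluster, against 4.65% and 1.76% of all genes, and by 5 and 3 of 6 in the 20% portion, against 9.06% and 1.69%. The smallest fold of the 6 was that of IFI27 in the NLGN1 and of IFI44L in the PLK5 cluster.

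Other interferon pathway genes were read where they had at least 100 UMIs in the cluster, those of the chosen nuclei included. In the NLGN1 cluster 33 of 68 were at least 2-fold higher in these nuclei, against 4.65% of all genes. In the PLK5 cluster 17 of 57 were, against 1.76%. In the 20% portion 20 of 47 and 4 of 20 were, against 9.06% and 1.69%. The median fold of the pathway genes in the 80% portion was 1.89 and 1.34, against 0.970 and 0.981 for all genes. The genes named next were chosen after their values were seen. OASL, an OAS relative without oligoadenylate synthesis, was 133.0-fold higher in the NLGN1 and 51.3-fold in the PLK5 cluster, and HERC5, the ligase that joins ISG15 to proteins, 31.4-fold and 22.0-fold. The RNA sensors DDX58 and IFIH1 were 14.6-fold and 8.28-fold higher in the NLGN1 cluster and 9.96-fold and 9.67-fold in the PLK5 cluster, and the helicase DDX60 21.6-fold and 22.6-fold. Outside the pathway list, and so not among these counts, the chemokine CCL5 was 29.7-fold higher in the NLGN1 cluster. ZC3HAV1, an antiviral RNA-binding protein also outside the list, was 14.2-fold higher there, against 15.004-fold in the PLK5 cluster. In the other nuclei CCL5 held 98 UMIs (NLGN1 cluster) and OASL 86 (PLK5 cluster), so both reached 100 only with the chosen nuclei. Within the list, the receptor IFNAR1 stood at 0.990-fold in the NLGN1 and 1.23-fold in the PLK5 cluster. The 20% portion, with 5 and 10 chosen nuclei, gave OASL at 151.2-fold and 13.2-fold, HERC5 at 19.7-fold and 15.9-fold and DDX58 at 16.6-fold and 9.13-fold. There OASL in both clusters and HERC5 in the PLK5 cluster were under 100 UMIs, so they are not among the counts above.

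**Figure D3:**
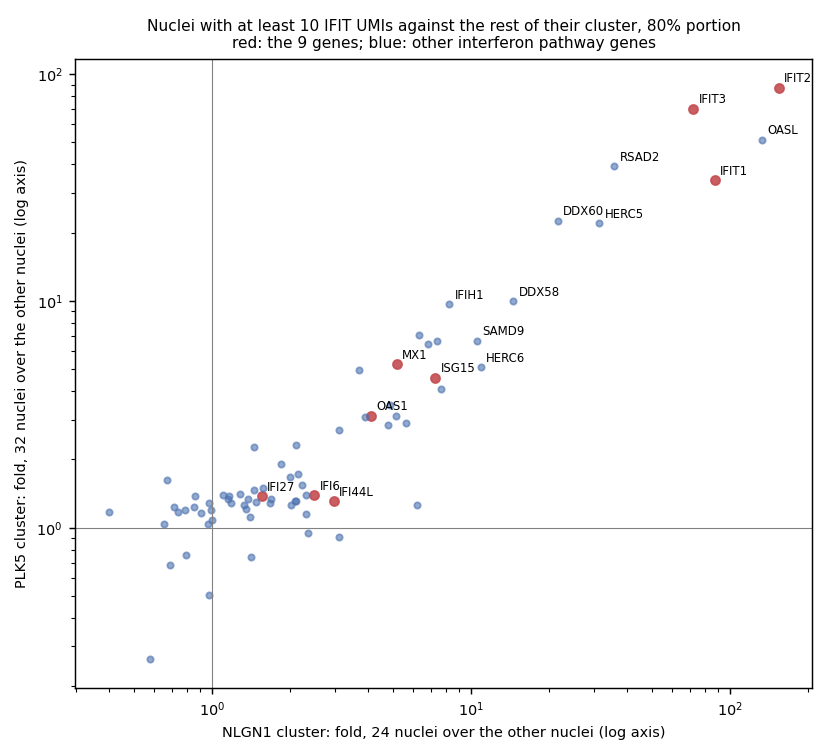
Fold of RNA levels in nuclei with at least 10 IFIT UMIs over the other nuclei of the same cluster, NLGN1 cluster on the x axis and PLK5 cluster on the y axis (log axes, 80% portion), for 74 genes of the interferon pathway including the 9 genes in red. Only genes with at least 40 UMIs in each cluster are drawn. Genes without a UMI in the chosen nuclei of either cluster are left out. OASL (133.0-fold and 51.3-fold), HERC5 and DDX60 lie with the IFIT genes, while IFI27, IFI6 and IFI44L lie near 1 on the y axis.

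ATAC counts were read in peaks within 1000 bp of the canonical start of each gene, per 1000000 counts in peaks of the cluster (also written CPM). All 9 genes had such a peak in the 80% portion, for instance chr14:94110323-94111191 at IFI27, chr21:41425767-41426656 at MX1, chr1:78619161-78620083 at IFI44L and chr1:1013013-1013888 at ISG15. The IFI44L peak ends 365 bp before the start. The printed stretches of ISG15, IFI6, IFIT1, IFIT3 and IFI27 lie inside the start peaks of those genes, and those of IFI44L and MX1 lie outside their start peaks.

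At 4 of the 9 starts the cluster highest in ATAC was also the highest in RNA, with an interval that overlapped that of the next cluster at each. IFI27 had 15.5 CPM (12.2 to 19.3) in the PLK5, 13.4 (11.6 to 15.4) in the NLGN1, 4.91 in the HCC827-like, 4.34 in the ZBTB46-AS1 and 0.531 (0.109 to 1.55) in the A549-like cluster. MX1 had 13.7 CPM in the HCC827-like and 13.3 in the NLGN1 cluster against 5.93, 4.30 and 1.95 in the ZBTB46-AS1, PLK5 and A549-like clusters. OAS1 had 9.99 CPM in the A549-like cluster and 2.54 in the ZBTB46-AS1 cluster, its highest and lowest for RNA as well. IFI44L had 5.43 CPM in the HCC827-like, 3.78 in the NLGN1, 1.86 in the PLK5, 0.973 in the A549-like and 0.636 in the ZBTB46-AS1 cluster, the order of its RNA. The same highest cluster for ATAC and RNA in 4 of 9 genes compares with 49.9% of 15001 genes with a start peak. The lowest cluster was the same for 4 of 9, against 43.2%. In the 20% portion the highest was the same for 3 of 8 (IFIT1, IFIT2 and OAS1), against 43.4% of 14342 genes, IFI44L having no start peak there. OAS1 alone matched in both portions, since MX1 was then highest in the NLGN1 and IFI27 in the HCC827-like cluster.

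The starts of the IFIT genes, ISG15 and IFI6 had counts in every cluster and in the 80% portion did not follow the RNA. IFIT1 had 5.67, 3.496, 4.86, 4.21 and 3.36 CPM in the NLGN1, ZBTB46-AS1, A549-like, PLK5 and HCC827-like clusters, a fold of 1.69 (0.732 to 4.04) between highest and lowest against 16.0 for RNA. IFIT2 had 5.26, 4.24, 4.51, 3.81 and 3.36 CPM in the same order, and IFI6 27.6, 27.0, 23.9, 20.9 and 17.6 CPM. IFIT3 had 13.2 CPM in the NLGN1 and 6.37 to 8.16 CPM in the other clusters. IFI6 ATAC was thus lowest in the HCC827-like cluster, where its RNA was highest, but its interval there (12.2 to 24.6) overlapped that of the PLK5 cluster (17.2 to 25.3). In the 20% portion IFI6 ATAC was lowest in the PLK5 cluster, at 15.2 CPM, against 25.6 CPM in the HCC827-like one. ISG15 was most accessible in the ZBTB46-AS1 cluster, at 20.9 CPM against 8.75 to 12.8 elsewhere, and its RNA there was the next to lowest. The 20% portion, with 88 counts at the IFIT1 start and 66 at that of IFIT2, had both highest in the PLK5 cluster as for RNA, at 5.39-fold (1.12 to 51.3) and 2.88-fold (0.370 to 129.9) over the lowest. At least 5-fold between highest and lowest cluster was reached by 3 of 9 starts (IFI27, IFI44L and MX1), against 17.2% of genes, and at least 2-fold over the next cluster by 0 of 9, against 8.55%.

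**Figure D4:**
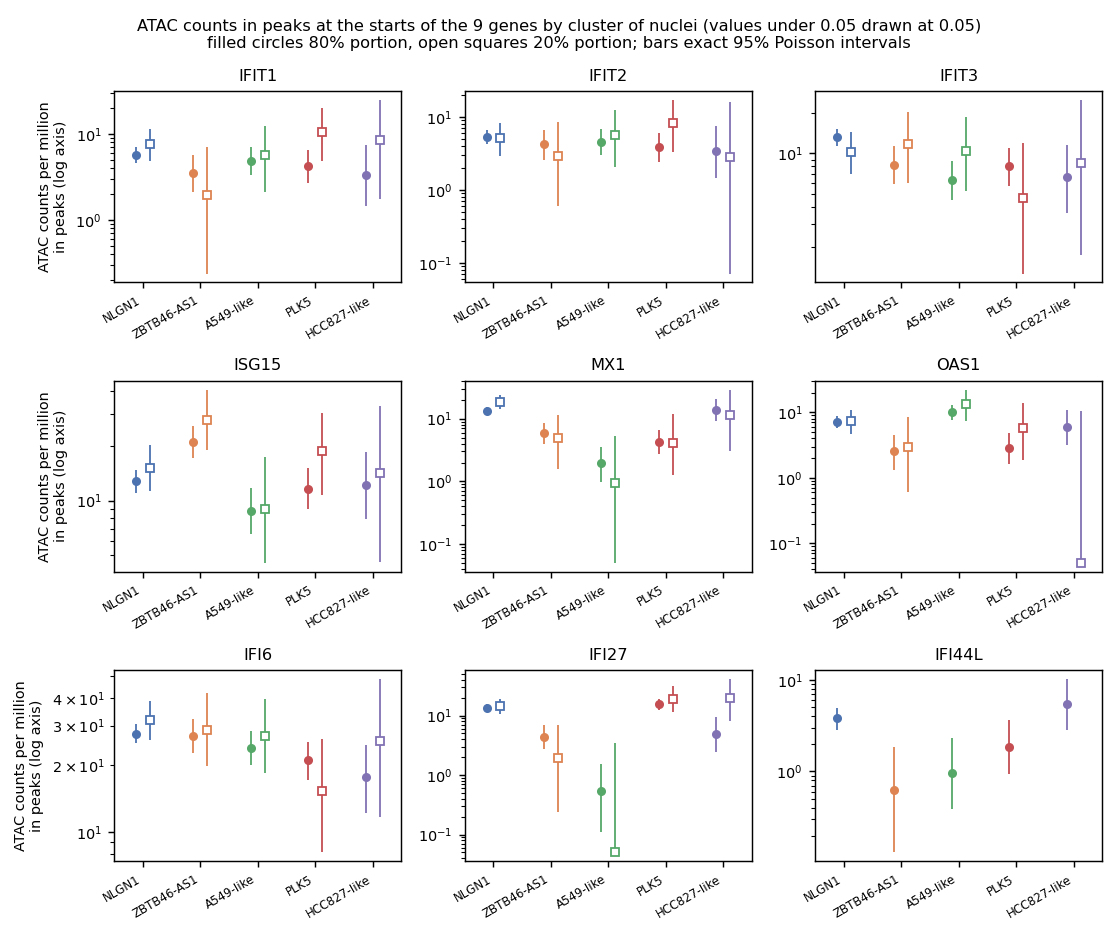
ATAC level (CPM, log axis) of peaks at the start of each gene in the 5 clusters, filled circles for the 80% and open squares for the 20% portion, with exact 95% Poisson intervals and values under 0.05 drawn at 0.05. IFI27 goes from 15.5 in the PLK5 to 0.531 in the A549-like cluster, whereas IFIT1, IFIT2 and IFI6 stay within a factor of 1.69 in the 80% portion and reach 5.39, 2.88 and 2.08 in the 20% portion.

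Peaks farther from the canonical starts, within 50 kb, were read as a description. A peak inside MX1, chr21:41446359-41447257, had 11.4 CPM in the ZBTB46-AS1 cluster, 22.1-fold over the next, although MX1 RNA there was at 4.39 CPM. The peak chr12:112899997-112900858, before OAS1, had 9.11 CPM in the A549-like cluster, where OAS1 RNA was highest. A peak inside IFIT3, chr10:89331867-89332886, covers the alternative start at 89332529. It had 4.79 CPM in the PLK5, 4.39 in the HCC827-like, 2.65 in the NLGN1, 1.06 in the A549-like and 0.318 in the ZBTB46-AS1 cluster. That was the order of IFIT3 RNA in the larger portion as deposited, which the peak at its canonical start did not have. The RNA order was not stable. IFIT3 RNA of the PLK5 cluster was 0.951 of that of the HCC827-like cluster with thinning. Without nuclei of at least 10 IFIT UMIs it was 0.486 of it. In the 20% portion IFIT3 RNA was at 4.92 CPM in the A549-like and 7.98 in the ZBTB46-AS1 cluster. Intervals are not given for this peak, so its match to the RNA order is not read as tracking. All 3 peaks were picked after their values were seen. Of 100354 peaks, 22.3% were at least 2-fold over the next cluster.

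Nuclei with an ATAC count at a start were compared with those without one in the same cluster. Over the 45 pairs of gene and cluster, RNA was higher with a count in 29, of which 8 had intervals that did not overlap. It was lower in 16, of which 1 did not overlap (IFIT3 in the HCC827-like cluster, at 8.01 CPM in 14 nuclei and 36.8 in 314). The same comparison was not made over all genes, so these counts are not read as particular to these genes. ISG15 in the PLK5 cluster was at 133.3 CPM with and 154.8 without a count. The pairs named next were picked after their values were seen. IFI27 RNA was at 415.9 CPM (384.7 to 449.1) in the 73 PLK5 nuclei with a count and 248.9 (240.5 to 257.5) in the 764 without. The same was seen within each of its finer groups, at 528.5 (52 nuclei) against 365.5 CPM in the larger and 143.4 (21 nuclei) against 79.1 CPM in the smaller. IFI44L RNA in the PLK5 cluster was at 69.5 CPM (43.5 to 105.2) in 12 nuclei with a count and 16.9 in 825 without. Of the 12, 4 held at least 10 IFIT UMIs. IFIT2 RNA in the NLGN1 cluster was at 98.2 CPM (82.8 to 116) in 79 nuclei against 9.56 in 2390, but without the nuclei of at least 10 IFIT UMIs at 7.93 (3.96 to 14.2) in 76 against 4.21 (3.60 to 4.89) in 2369. The large IFIT2 difference was thus not seen without the nuclei of at least 10 IFIT UMIs, 3 of which had a count. Those nuclei had been chosen in part by their IFIT2 UMIs. Nuclei with a count were deeper, at a median of 19018 RNA UMIs against 15548.5 for IFI27 in the PLK5 cluster, and the part of depth in these differences was not tested. In the 24 NLGN1 nuclei with at least 10 IFIT UMIs, 10 (41.7%, 22.1 to 63.4) had a count at the ISG15 start, against 7.24% (6.24 to 8.34) of 2445, while 1 of 32 did in the PLK5 cluster. At the IFI44L start 1 of the 24 had a count. There 4 of the 32 PLK5 nuclei (12.5%, 3.51 to 29.0) did, against 0.994% (0.430 to 1.95) of the other 805. Both starts were picked after their values were seen.

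**Figure D5:**
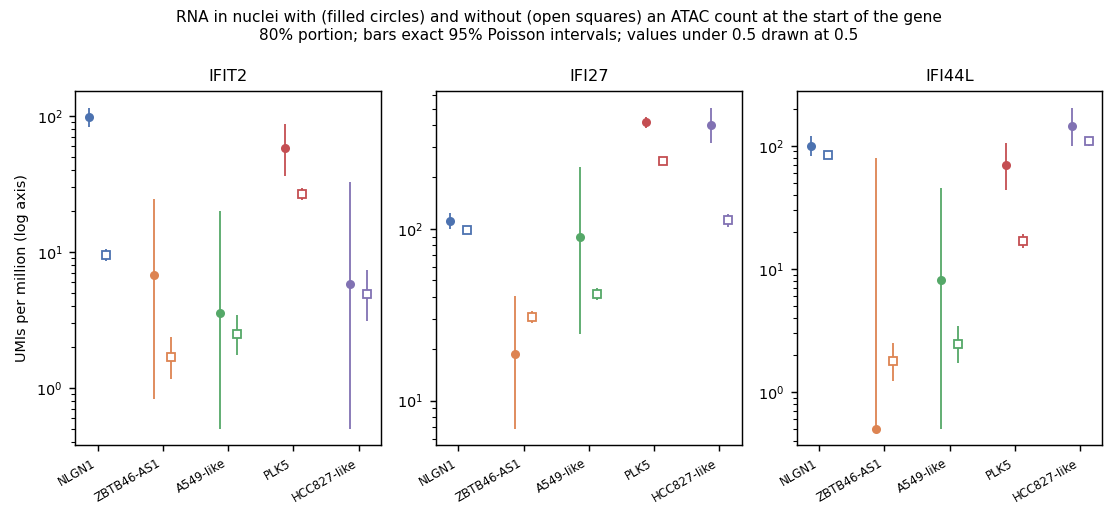
RNA level (CPM, log axis) of IFIT2, IFI27 and IFI44L in nuclei with (filled circles) and without (open squares) an ATAC count at the start of the gene, by cluster of the 80% portion, with exact 95% Poisson intervals. IFI27 in the PLK5 cluster is at 415.9 CPM with and 248.9 without a count. The IFIT2 gap in the NLGN1 cluster, 98.2 against 9.56, is smaller without nuclei of at least 10 IFIT UMIs.

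The rest of the pathway was described from a list of 82 genes, of which 71 had at least 100 UMIs. Of the ligands, IFNA1, IFNA2, IFNB1, IFNG, IFNL1, IFNL2 and IFNL3 had 0 UMIs, which allows up to 3 in the whole 80% library, IFNK had 1 and IFNE had 74. Among receptors and kinases, IFNGR1 stood between 32.4 and 67.1 CPM and JAK1 between 119 and 200 CPM. Of the transcription factors, IRF9 was at 44.8 CPM in the HCC827-like cluster and at 20.0 at most elsewhere, and IRF7 at 21.8 against 10.2 at most. The HCC827-like cluster was the highest for 4 of the 7 transcription factors, and for 2574 of all 16913 genes tested. The NLGN1 cluster was the highest for 1 and the ZBTB46-AS1 cluster for 2, and for 3761 and 4285 of all genes. IRF9 and IRF7 are named because only these 2 of the 7 met the 2-fold rule, which 17.6% of all genes met.

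The highest cluster was at least 2-fold over the next for 13 of the 71 genes, a share close to the 17.6% of all genes. With 7 clusters, in which the NLGN1 and PLK5 clusters are each divided, 5 met the rule, against 12% of all genes. Among the 13, the highest cluster was the HCC827-like one for IRF7, IRF9, TBK1, OAS2, XAF1, EPSTI1 and PARP14. It was the NLGN1 cluster for TLR3, GBP4, CIITA and IDO1, and the PLK5 cluster for OASL and RSAD2. XAF1, a proapoptotic protein, was at 33.8 CPM in the HCC827-like, 15.03 in the PLK5 and 7.29 in the NLGN1 cluster and below 1 CPM in the other two. IDO1, a tryptophan-degrading enzyme that interferon gamma induces, was at 113 CPM in the NLGN1 cluster and at 16.2 at most elsewhere. OASL, at 18.3 CPM in the PLK5 and 8.87 in the NLGN1 cluster, and RSAD2, at 6.24 and 1.91, had the order of IFIT2. TBK1, the kinase that phosphorylates IRF3, was at 863.5 CPM in the HCC827-like cluster and at 84.7 at most elsewhere. The median fold of highest over lowest cluster was 4.54 for the 71 genes, between the 13.4 of the 9 genes and the 2.71 of all genes.

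The genes most like the sum of the 9 over the 10 cluster values (5 clusters in each portion, as log2 of CPM plus 1) were H2AFX at a Pearson correlation of 0.992, then ZNF680, EIF3B, HIP1R, FRMD5, IRAK1, HMOX2, UPP1, DUSP10 and RPL13, the last at 0.983. The 10 values are 5 groups measured from the same GEMs, and 12369 genes were ranked. Over the 837 nuclei of the PLK5 cluster the closest genes outside the pathway list were SYT1 at 0.476, CD63 at 0.447, TMBIM6 at 0.435, CLDN7 at 0.414, DSC2 at 0.411, CDH3, RPL41, MYO6, SYNE2 and CDH1 at 0.396. DDX58 and IFI44, of the pathway list, stood at 0.464 and 0.458. The nuclei of this cluster share its division into groups of 472 and 365.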

How the data were processed

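RNA and ATAC counts of 2 multiome portions were used. The authors deposited raw counts per nucleus, UMIs for genes and counts for peaks, with Cell Ranger ARC 2.0.0 as the software and hg38 as the build, and with peaks called separately for each portion. The sources used here do not say whether an ATAC count is a fragment or an end (90.1% of values above 0 were even), so intervals used counts divided by 2. A long-read library of the 20% portion was not analysed here. All deposited barcodes were kept. Nuclei were clustered with Seurat 5.3.0 in R 4.3.3 (2000 variable genes without the 9 genes and the pathway list, 30 components, 20 neighbours, Louvain resolution 0.02, seed 0). Each nucleus of the 20% portion took the 80% cluster whose mean profile over the variable genes it correlated with most. The same step returned 98.2% of 80% nuclei to their own cluster. Clusters were named from line markers. UMIs were summed per cluster and scaled to 1000000 UMIs of the cluster (CPM), and ATAC counts to 1000000 of its counts in peaks. Intervals are exact Poisson or exact binomial at 95% (scipy 1.17.1, Python 3.11.15, numpy 2.4.6, pandas 2.3.3) and cover counting error only. Scrublet (scanpy 1.11.5, assumed rate 0.06) marked doublets. Figures were drawn with matplotlib 3.10.9. On simulated counts over 16913 genes, the 2-fold rule found 97 of 100 genes set 3-fold higher and 0.0419% of unchanged genes. The simulation held counting error only, with each change placed in the PLK5 cluster. It had no spread between nuclei, so it does not give the rate of false calls in these data. The 9 genes, the pathway list and the markers were chosen with earlier results of these data known. Named genes were the 9, the pathway genes past 2-fold or with the most UMIs of their role, the 10 most like the sum by each measure, and the leading genes of clusters, and some of these are not reported here. Promoters were RefSeq windows of GRCh38.p14, and starts were GENCODE canonical ones. Alternatives were doublet removal, ATAC minimums, shared barcodes left out, ATAC clusters, other seeds, thinning, wider start windows, another motif and, added after seeing the data, 7 clusters, equal weights and leaving out nuclei with at least 10 IFIT UMIs.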

Additional observations from a re-analysis of the deposited data

How the results depend on the processing

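Planned settings were doublet removal, ATAC minimums, shared barcodes left out, ATAC clusters, clusters made with the interferon genes and 5 other seeds. Thinning, other start windows and scalings and another motif or window were planned too. Over these, 69 summary values stayed within the main interval or, for counts, within 1.5 times, 4 left the interval and 1 reversed. Seeds 1, 4 and 5 returned the main values, and the share of nuclei thinned to 5000 UMIs is the main value itself, so these could show little. Over the settings added after seeing the data, 3 values stayed within these limits, 8 left them and 1 reversed. The summed level, 6.47-fold from highest to lowest cluster, became 6.83 without doublets, 6.08 thinned to 5000 UMIs, 8.59 with 7 clusters, 7.14 with equal weights and 5.45 without nuclei of at least 10 IFIT UMIs. The lead of the PLK5 over the HCC827-like cluster, 1.08-fold, became 0.962 with thinning, 0.974 without those nuclei and 1.02 with equal weights. With 7 clusters the PLK5 cluster is divided, and 1.43 is the fold of its larger group over the HCC827-like cluster. Its smaller group, at 336.5 CPM, stood below the 603.6 CPM of the HCC827-like cluster. IFIT3 turned to 0.951 and ISG15 to 0.889 with thinning, and to 0.486 and 0.941 without those nuclei. The share of HCC827-like nuclei with at least 3 of the genes, 31.0%, was 9.76% thinned to 2000 UMIs and 65.2% unthinned. With 7 clusters, which divide the NLGN1 and PLK5 clusters, the 2-fold rule was met by 2 instead of 4 genes and by 5 instead of 13 pathway genes. The Fano factor exceeded 1.2 for 5 instead of 9 genes in the PLK5 cluster without those nuclei. The cause of each change was not tested beyond what the setting itself removes. No replicate could be left out, and no paired test exists. No paired analysis was possible because each portion holds 1 library and no result comes from a test. Few counts limit the start peaks, where intervals of the highest over the lowest cluster were wide. In the 80% portion that of IFIT1 ran from 0.732 to 4.04 and that of IFI27 from 9.61 to 144.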

Other observations

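TBK1 stood apart from the rest of the pathway list together with neighbours on chromosome 12, which were looked at after its value was seen. In the HCC827-like cluster RASSF3 was at 225.7 CPM, 5.23-fold over the next cluster, and TBC1D30 at 172.3 CPM (12.3-fold), beside 10.2-fold for TBK1 and 9.30-fold for TBK1 in the 20% portion. XPOT, which ends just before TBK1, was at 1.11-fold, and LEMD3, farther along, at 1.14-fold. ATAC counts in the 0.5 Mb after the TBK1 start were 10.2-fold over the mean of the other clusters across 54 peaks, those in the 0.5 Mb before it 3.29-fold, and those in the next 0.5 Mb after it 0.914-fold. RNA and ATAC were thus both higher in the 0.5 Mb after the TBK1 start, while before it ATAC was higher and XPOT was within 1.11-fold. None of the 9 genes lies there.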
